A study of Rattus norvegicus with 15 samples.

Results

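In rat cortical astrocytes injured with H2O2, 131 of 32552 annotated genes were lower after whole mitochondria were added than without them. The members were chosen from these same libraries, by the transcript level of each gene in CPM, its count divided by the total count of the library and multiplied by 1000000. A gene was taken if it averaged at least 1 CPM over the 6 libraries of the H2O2 and MitoCoat-mRNA groups, if each of the 6 libraries of the unmodified mitochondria and MitoCoat groups lay below all of those 6, and if the log2 ratio of the means of these sets of 6, with 0.5 CPM added, was -0.6 or lower. The difference between those 2 sets of libraries is therefore a description here, with no test. At least 1 CPM was reached by 13180 genes, of which 343 did not overlap and were lower with mitochondria (2.6%), while 594 did not overlap and were higher (4.51%).

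The study profiled polyA RNA of primary wild-type astrocytes in 5 groups of 3 samples. Control wells received water as vehicle, and the other 4 groups received 100 µM H2O2 for 30 min. After 24 h, 1 of these groups was left without further treatment and the others received unmodified mitochondria, MitoCoat or MitoCoat-mRNA, and RNA was profiled 6 h later. Unmodified mitochondria came from cryopreserved rat placenta. MitoCoat is the same preparation coated with the lipids DOTAP and DOPE, and MitoCoat-mRNA is RNA extracted from such mitochondria and enclosed in the same lipids, without the organelle. The study calls the samples of a group biological replicates, and neither it nor the labels say whether the RNA came from separate cultures or animals, so all p-values measure the spread between these samples. The extraction protocol in the labels names a mitochondria-enriched fraction as the source of the RNA. The sample titles and the study describe the profiled material as astrocytes. Total counts ranged from 35315654 to 46778663 per library.

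Astrocytes supply neurons with metabolic substrates, take up glutamate and respond to injury with changes in cell shape, adhesion and secreted signals. Hydrogen peroxide crosses membranes and oxidises proteins, lipids and DNA, and mitochondria added to the medium can be taken up by endocytosis. Cationic and fusogenic lipids are used to carry cargo across the cell membrane.

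The files list genes by Ensembl identifier, and 0 of the 32552 identifiers could be paired with a symbol here. The functions of the members, pathway lists and the astrocyte markers were therefore not analysed here, and the label astrocyte was not checked against markers. Members are given by their position on the Rnor6.0 assembly as the files give it, with the count of exons after overlapping exons of a gene were merged. In bulk RNA, fewer cells of a type and less RNA per cell cannot be told apart.

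The log2 ratio of the members had a median of -0.77 and reached -2.05, and 28 members had a ratio of -1 or lower while 71 lay above -0.8. The 12 lowest ratios are plotted by sample. The lowest belonged to ENSRNOG00000000952 (chr12:9605873-9607168, minus strand, 2 exons), which gave 0.622, 0.889 and 1.14 CPM with unmodified mitochondria and, with MitoCoat, 0.374, 0.591 and 1.25 CPM. The same gene gave 4.47, 6.00 and 5.41 CPM with H2O2 alone, 3.65, 5.28 and 4.82 CPM with MitoCoat-mRNA, and 8.70, 10.4 and 12.5 CPM in control. Its levels thus stood in 3 steps that did not overlap, with control on top and mitochondria at the bottom.

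**Figure D1:**
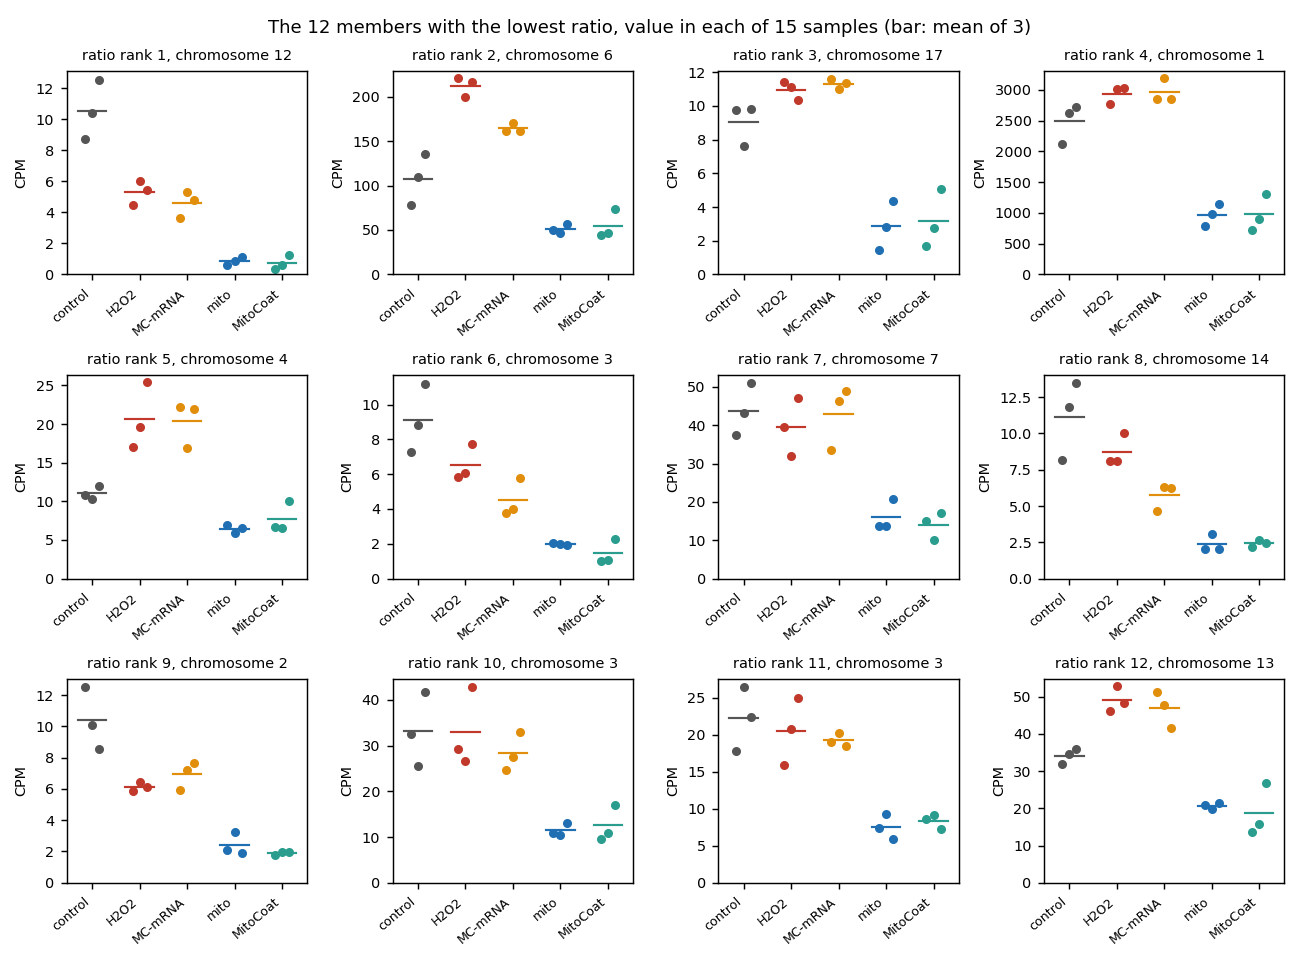
Each panel plots 1 of the 12 members with the lowest ratio, with the group on the horizontal axis (mito, unmodified mitochondria; MC-mRNA, MitoCoat-mRNA) and CPM from 0 on the vertical axis; points are the 3 samples and bars their mean. The unmodified mitochondria and MitoCoat points lie below the H2O2 and MitoCoat-mRNA points in every panel, as the choice of members requires, while control, which the rule did not use, lies above, among or below the H2O2 points depending on the gene.

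The second lowest ratio, -1.82, belonged to chr6:127075954-127127413. It gave 220.5, 199.7 and 216.9 CPM with H2O2, 161.3, 170.6 and 161.2 CPM with MitoCoat-mRNA, 49.8, 46.2 and 57.1 CPM with unmodified mitochondria and, with MitoCoat, 44.2, 46.1 and 73.8 CPM. Its control values of 78.3, 110.02 and 135.2 CPM lay between these ranges. The third, chr17:22137324-22143324, had a ratio of -1.73 and the same order, with control at 9.77, 7.65 and 9.81 CPM, H2O2 at 11.4, 11.1 and 10.3 CPM, and MitoCoat-mRNA at 11.6, 11.03 and 11.4 CPM. With unmodified mitochondria it gave 1.45, 2.81 and 4.37 CPM and with MitoCoat 1.68, 2.74 and 5.07 CPM, so its lowered values spread over a wide range within each group.

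The fourth was ENSRNOG00000015036 (chr1:21851660-21854773, minus strand, 4 exons), with a ratio of -1.60. Its level was 2771, 3018 and 3036 CPM with H2O2, 2849, 3191 and 2852 CPM with MitoCoat-mRNA, and 2123, 2627 and 2723 CPM in control. With unmodified mitochondria it gave 793.5, 977.99 and 1150 CPM and with MitoCoat 721.7, 897.9 and 1305 CPM. Replicate 3 was the highest of its group in both mitochondria-treated groups.

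Among the next 8, the gene at chr4:171069191-171176581 gave 17.02, 19.6 and 25.4 CPM with H2O2 and 22.3, 16.9 and 21.9 CPM with MitoCoat-mRNA. Its levels with unmodified mitochondria were 6.94, 5.92 and 6.53 CPM, those with MitoCoat 6.68, 6.56 and 10.1 CPM, and those in control 10.8, 10.3 and 11.99 CPM. Control thus lay just above the lowered range. The gene at chr7:121214628-121232741 showed another order. It gave 37.3, 43.1 and 51.1 CPM in control and 39.6, 32.1 and 47.1 CPM with H2O2, which overlapped, 33.5, 46.2 and 49.04 CPM with MitoCoat-mRNA, 13.8, 13.8 and 20.7 CPM with unmodified mitochondria and, with MitoCoat, 14.9, 10.03 and 17.1 CPM. At chr3:160554425-160561741, chr14:84968130-84978255, chr3:82854777-82856171 and chr3:105467480-105470475, control likewise overlapped the H2O2 and MitoCoat-mRNA range. At chr2:124400679-124405331, control lay above all of these values, and at chr13:111574609-111581019 it lay between the ranges.

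The members ranged from 1.47 to 4215 CPM in the mean of the H2O2 and MitoCoat-mRNA libraries, with a median of 33.7 CPM against 24.6 CPM over the 13180 genes. At least 100 CPM was reached by 36 members, 60 lay from 10 to below 100 CPM and 35 lay below 10 CPM. Per kilobase of exon, the median level was 10.5 CPM for the members and 9.92 CPM for the 13180 genes. The smallest count of any member in any of the 12 libraries of the rule was 10, and 120 of 131 members had at least 50 counts in each of them. Counting error was therefore largest for the 11 remaining members, ENSRNOG00000000952 among them.

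On the per-kilobase scale, 4 members stood above the others, from 572 to 1153 CPM per kilobase, and the next reached 166.4. The highest was chr3:109862117-109873466 with 30 exons, at 4427, 3642 and 4513 CPM with H2O2, 3552, 4857 and 4298 CPM with MitoCoat-mRNA, 2611, 2878 and 2607 CPM with unmodified mitochondria, with MitoCoat 2456, 2366 and 2102 CPM, and 3734, 5411 and 5234 CPM in control. ENSRNOG00000015036 was next. The third, chr13:71331052-71340229, gave 2149, 2270 and 2235 CPM with H2O2, 2487, 2484 and 2285 CPM with MitoCoat-mRNA and 1568, 1519 and 1432 CPM with unmodified mitochondria, beside 1502, 1450 and 1254 CPM with MitoCoat and 2517, 2649 and 2398 CPM in control. Its groups were tight and its ratio of -0.67 modest. The fourth, chr3:171294856-171342646, is described with the genes that rose after H2O2. Of the remaining 8 among the 12 members with the most CPM, control overlapped the H2O2 and MitoCoat-mRNA range in 6 and lay above it in 2.

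Control was not used to choose the members, so where it lay could differ from gene to gene. In 48 members all 3 control values lay above all 6 H2O2 and MitoCoat-mRNA values (36.6%, against 12% of the 13180 genes). In 57 the control range overlapped the H2O2 and MitoCoat-mRNA range alone (43.5%, against 5.78%). Control lay between the 2 ranges in 8 (6.11%, against 0.0759%), overlapped the mitochondria and MitoCoat range alone in 12 (9.16%, against 2.41%) and overlapped both ranges in 6 (4.58%, against 61.6%). It lay below all mitochondria and MitoCoat values in 0 members (18.1% of the 13180 genes), and in 1 without control replicate 3. The background holds mostly genes whose 2 ranges overlap each other, which those of the members cannot, and a gene that is low with mitochondria has less room for control below it, so these shares are descriptions. In most members the H2O2 libraries without mitochondria were therefore at or below the control level, and the mitochondria-treated libraries further below.

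**Figure D2:**
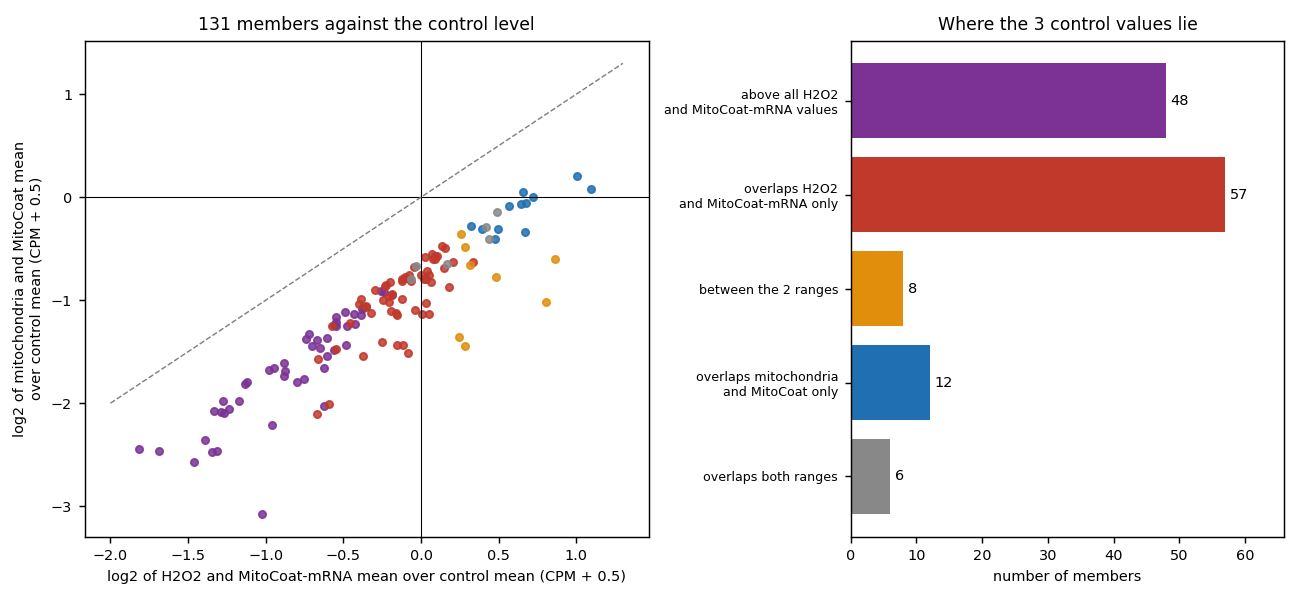
Left, each point is 1 of the 131 members, with the log2 of the H2O2 and MitoCoat-mRNA mean over the control mean on the horizontal axis and that of the unmodified mitochondria and MitoCoat mean over the control mean on the vertical axis (0.5 CPM added), the dashed line marking equal values. Right, bars count the members by where the 3 control values lie and give the colour key of the points: 48 above, 57 overlapping the upper range, 8 between, 12 overlapping the lower range and 6 overlapping both.

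On the log2 scale of means with 0.5 CPM added, the H2O2 and MitoCoat-mRNA mean stood at a median of -0.21 relative to control over the members, and the mitochondria and MitoCoat mean at -1.06. Over the 13180 genes these medians were -0.01 and 0.04. The control mean exceeded the H2O2 and MitoCoat-mRNA mean in 87 members, lay between the means in 40 and was below the mitochondria and MitoCoat mean in 4. Members with control on top had lower levels, with a median of 8.64 CPM, than members in which control overlapped the upper range, with a median of 53.1 CPM.

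The comparison of H2O2 with control asked what the injury alone had done to these genes. By edgeR's quasi-likelihood test with Benjamini-Hochberg adjustment over 15650 genes, 32 of 131 members fell (24.4%, against 4.22% of all genes tested), 9 rose (6.87%, against 2.97%) and 90 were not called at an adjusted p under 0.05. The rule used these H2O2 libraries and favours a high H2O2 value, the direction of the rises. It also favours genes with little spread between libraries, and the members were more abundant than the median gene, so more calls in either direction may come with the choice of members and the shares are descriptions. The median log2 fold change of the members was -0.17, against 0.01 over all genes tested. Leaving out single libraries could lower the number of calls, among the members and among all genes alike. Falls numbered 11 without control replicate 2 (8.4% of members, against 1.44% of all genes) and 11 without control replicate 3 (8.4%, against 1.79%). They numbered 19 without either H2O2 replicate 2 (14.5%, against 2.18%) or H2O2 replicate 3 (14.5%, against 1.91%). Rises numbered 2 without control replicate 2 (0.902% of all genes) and 5 without H2O2 replicate 3 (1.35%). With DESeq2, 40 fell (30.5%, against 6.82% of all genes) and 17 rose (13%, against 4.56%).

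The largest fall was at chr4:342302-350515, which gave 104.9, 114.5 and 124.3 CPM in control and 34.01, 34.5 and 30.9 CPM with H2O2, with a log2 fold change of -1.77 (SE 0.104, edgeR adjusted p = 0.000424). It gave 31.6, 33.8 and 28.1 CPM with MitoCoat-mRNA, 19.1, 21.5 and 20.01 CPM with unmodified mitochondria and, with MitoCoat, 21.2, 24.9 and 17.1 CPM. Most of the distance from control to the lowest groups was thus already present with H2O2 alone. At chr6:55812747-55817066, control values of 14.3, 13.02 and 17.4 CPM stood against 4.42, 3.43 and 5.39 CPM with H2O2, a log2 fold change of -1.74 (SE 0.198, edgeR adjusted p = 0.00247). With unmodified mitochondria that gene gave 2.28, 1.92 and 2.68 CPM and with MitoCoat 2.03, 2.12 and 2.72 CPM.

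The single-exon gene at chr4:83967696-83972540 fell from 140.1, 183.96 and 161.4 CPM in control to 76.6, 55.5 and 67.4 CPM with H2O2 (log2 fold change -1.27, SE 0.136, edgeR adjusted p = 0.00198). Its values were 63.1, 73.5 and 60.4 CPM with MitoCoat-mRNA, 50.3, 35.9 and 35.9 CPM with unmodified mitochondria and, with MitoCoat, 42.8, 34.5 and 26.9 CPM. A gene of 22 exons at chr11:66932614-66961713 followed the same order. It gave 88.4, 93.2 and 91.2 CPM in control, 49.5, 32.1 and 37.8 CPM with H2O2, 39.6, 34.9 and 35.9 CPM with MitoCoat-mRNA, 22.7, 19.4 and 26.9 CPM with unmodified mitochondria and, with MitoCoat, 23.8, 17.6 and 18.6 CPM, the change after H2O2 being -1.18 on the log2 scale (SE 0.135, edgeR adjusted p = 0.00255).

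The gene with the most exons named here, 67 over chr5:171472273-171620947, gave 16.6, 18.2 and 22.3 CPM in control and 9.57, 7.52 and 7.25 CPM with H2O2, a log2 fold change of -1.22 (SE 0.164, edgeR adjusted p = 0.00493). It then gave 3.90, 6.63 and 4.75 CPM with MitoCoat-mRNA, 2.23, 2.74 and 3.47 CPM with unmodified mitochondria and, with MitoCoat, 2.10, 2.74 and 3.50 CPM. The MitoCoat-mRNA values lay below those of H2O2 in this gene, with a log2 fold change of -0.67 (SE 0.218) that did not pass adjustment (edgeR unadjusted p = 0.0132, adjusted p = 1).

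The other members among the 10 falls with the lowest adjusted p lay at chr16:74680621-74710704, chr8:46603728-46675544, chr7:2635743-2642848, chr15:51843564-51855325 and chr15:18399515-18415965. Their log2 fold changes after H2O2 were -0.79, -1.11, -1.18, -0.63 and -0.65, and in each of them control lay above all H2O2 and MitoCoat-mRNA values. ENSRNOG00000000952 fell by 0.97 on the log2 scale (SE 0.202, edgeR adjusted p = 0.0246). That call was lost without control replicate 2 (adjusted p = 0.0839), control replicate 3 (0.1003), H2O2 replicate 1 (0.0527) or H2O2 replicate 3 (0.0749). The log2 fold change in those fits ran from -0.993 to -0.817.

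**Figure D3:**
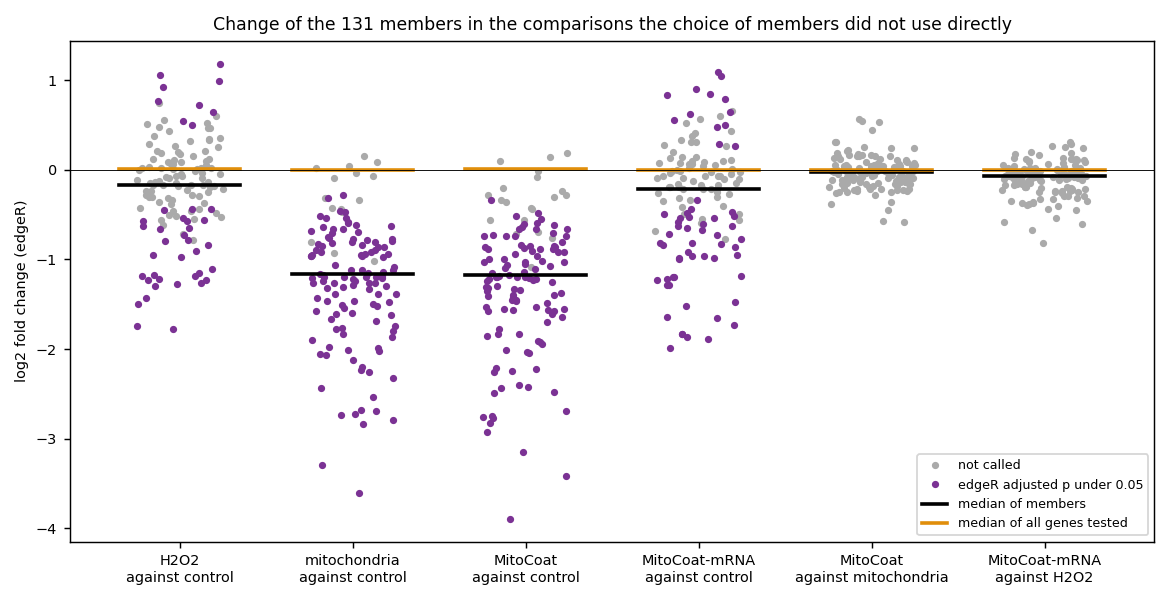
Each point is the edgeR log2 fold change (vertical axis) of 1 of the 131 members in 1 of 6 comparisons (horizontal axis, points spread sideways for visibility); violet points passed an adjusted p under 0.05, black bars are medians of the members and orange bars medians of all genes tested. Member medians are -0.17 for H2O2, -1.16 for unmodified mitochondria, -1.18 for MitoCoat and -0.21 for MitoCoat-mRNA against control, and -0.02 and -0.07 in the last pair of comparisons, where 0 members were called. All 6 comparisons use libraries that entered the choice of members, unmodified mitochondria and MitoCoat for low values, H2O2 and MitoCoat-mRNA for high values. In the last pair of comparisons both groups lay on the same side of the rule, so their likeness is partly built into the choice.

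The 9 members that rose after H2O2 differed in where the mitochondria-treated libraries lay relative to control, level with it in some and below it in others. Since the rule favours high H2O2 values, the p-values of these rises are not independent of the choice of members. The single-exon gene at chr4:96562725-96564611 gave 13.4, 11.3 and 13.2 CPM in control and 27.2, 24.3 and 33.6 CPM with H2O2 (log2 fold change 1.19, SE 0.140, edgeR adjusted p = 0.00274). It gave 24.2, 21.6 and 34.1 CPM with MitoCoat-mRNA, 11.97, 10.1 and 14.9 CPM with unmodified mitochondria and, with MitoCoat, 11.5, 10.97 and 21.01 CPM. Its control values overlapped those of both mitochondria-treated groups, and its differences from control were -0.07 (SE 0.155) with unmodified mitochondria and 0.15 (SE 0.227) with MitoCoat on the log2 scale.

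The gene at chr5:159845774-159874206 showed the same order. It gave 33.3, 26.6 and 30.5 CPM in control, 48.6, 46.3 and 44.9 CPM with H2O2, 54.96, 54.1 and 51.7 CPM with MitoCoat-mRNA, 31.5, 32.6 and 29.5 CPM with unmodified mitochondria and, with MitoCoat, 29.9, 26.4 and 31.8 CPM. The change after H2O2 was 0.65 on the log2 scale (SE 0.0993, edgeR adjusted p = 0.00802). This gene and the single-exon gene on chromosome 4 were the 2 rises called without control replicate 2, where the other 7 had adjusted p from 0.0525 to 0.166.

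Among those 7, the gene at chr3:124129558-124145566 gave 9.03, 10.8 and 12.5 CPM in control and 18.5, 22.6 and 25.3 CPM with H2O2 (log2 fold change 1.05, SE 0.174, edgeR adjusted p = 0.0102). With unmodified mitochondria it gave 12.3, 13.2 and 11.3 CPM, with MitoCoat 11.7, 11.4 and 15.2 CPM, and with MitoCoat-mRNA 20.01, 23.7 and 22.8 CPM. The gene at chr3:171294856-171342646 was the most abundant of the set. It gave 530.97, 581.1 and 677.8 CPM in control, 811.7, 1139 and 966.7 CPM with H2O2, 950.9, 933.6 and 883.95 CPM with MitoCoat-mRNA, 454.4, 418.9 and 381.5 CPM with unmodified mitochondria and, with MitoCoat, 468.4, 476.7 and 623.9 CPM. Its rise was 0.73 on the log2 scale (SE 0.160, edgeR adjusted p = 0.031). The call was lost without control replicate 1 (adjusted p = 0.0618), control replicate 2 (0.124), H2O2 replicate 2 (0.0841) or H2O2 replicate 3 (0.0846). The log2 fold change in those fits ran from 0.574 to 0.727.

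The 3 rises with control between the ranges were those at chr6:127075954-127127413 (log2 fold change 0.99, SE 0.183, edgeR adjusted p = 0.0158), chr4:171069191-171176581 (0.93, SE 0.166, adjusted p = 0.0144) and chr13:111574609-111581019 (0.54, SE 0.106, adjusted p = 0.0195). The last gave 31.8, 34.6 and 36.04 CPM in control, 46.1, 52.8 and 48.2 CPM with H2O2, 51.4, 47.8 and 41.6 CPM with MitoCoat-mRNA, 20.9, 19.8 and 21.5 CPM with unmodified mitochondria and, with MitoCoat, 13.6, 15.8 and 26.7 CPM. In these genes the mitochondria-treated libraries passed beyond control on the other side. The remaining 2 rises, at chr13:96775357-97173469 and chr6:41932244-42002819, were 0.50 (SE 0.0931, adjusted p = 0.0164) and 0.77 (SE 0.185, adjusted p = 0.0416) in edgeR. The chromosome 6 gene at 41932244 was not called when any library other than control replicate 3 was left out (adjusted p from 0.0648 to 0.166). Its log2 fold change in those fits ran from 0.67 to 0.795.

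**Figure D4:**
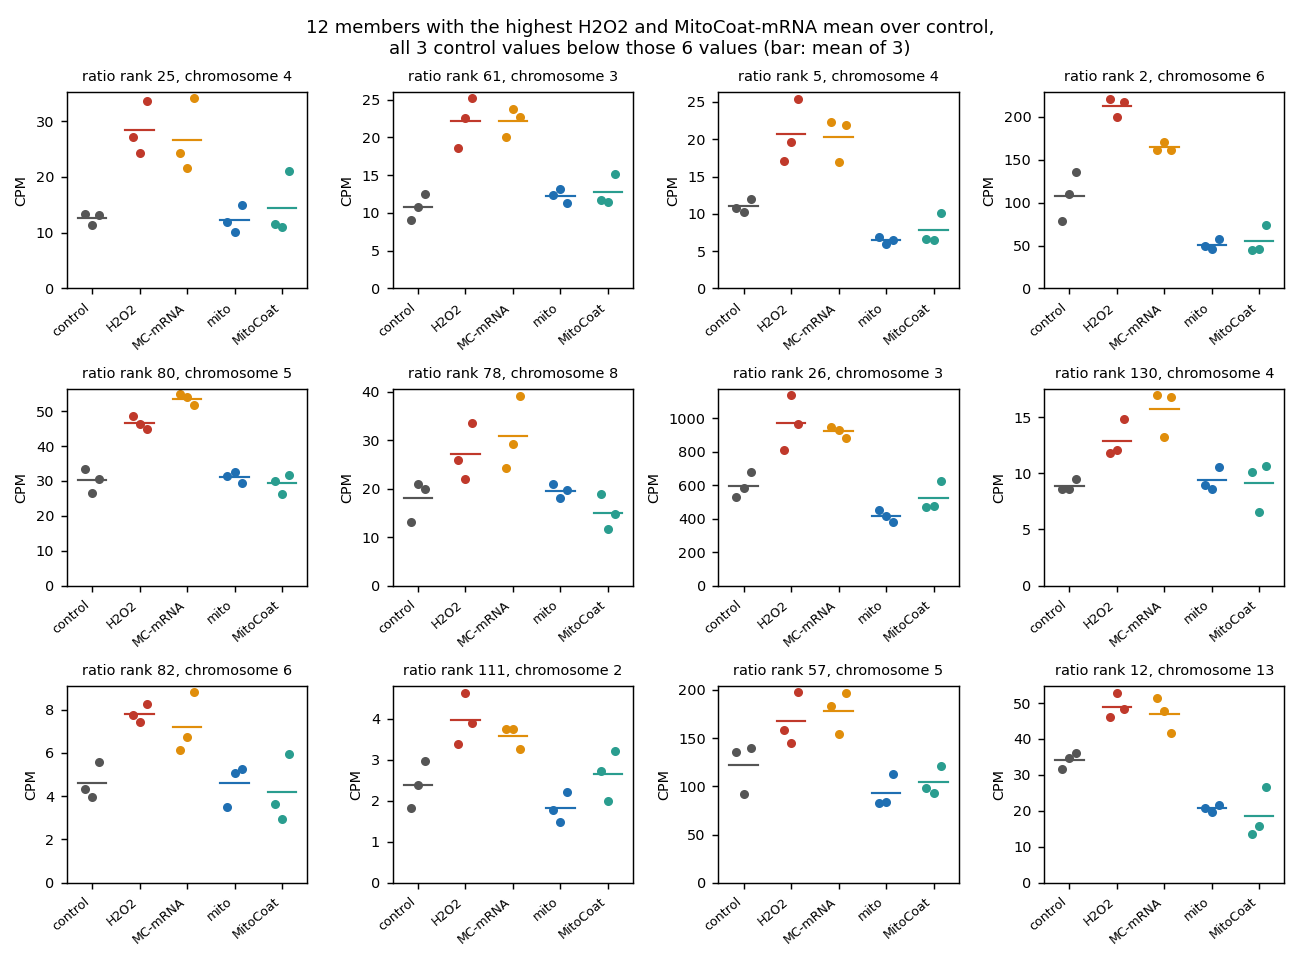
Panels plot the 12 members with the highest H2O2 and MitoCoat-mRNA mean relative to control among those whose control values all lay below these 6 libraries, with CPM from 0 on the vertical axis and the group on the horizontal axis (mito, unmodified mitochondria; MC-mRNA, MitoCoat-mRNA); points are the 3 samples and bars their mean. Control lies level with the mitochondria-treated groups in some panels and between the ranges in others; at chr6:127075954-127127413 (ratio rank 2) control spans 78.3 to 135.2 CPM, the H2O2 samples 199.7 to 220.5 CPM.

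The unmodified mitochondria and MitoCoat libraries were themselves used to choose the members for low values, so their differences from control are given as a description. The median log2 fold change of the members against control was -1.16 with unmodified mitochondria and -1.18 with MitoCoat. Of 131 members, 116 passed edgeR's threshold as lower with unmodified mitochondria (88.5%, against 12.2% of all genes tested) and 111 with MitoCoat (84.7%, against 13.1%), shares that the choice of members largely sets and from which nothing is read. ENSRNOG00000000952 had the largest of these differences, -3.60 with unmodified mitochondria and -3.89 with MitoCoat, and ENSRNOG00000015036 stood at -1.39 and -1.40. At the other end, 4 members with unmodified mitochondria and 3 with MitoCoat had a fold change above 0, the highest being 0.15 and 0.19 at chr3:124129558-124145566.

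MitoCoat-mRNA was compared with the same control samples as H2O2. By edgeR, 47 members were lower (35.9%, against 8.72% of all genes tested) and 13 higher (9.92%, against 7.18%), with a median log2 fold change of -0.21. The rule favours high MitoCoat-mRNA values, so the higher calls run in its direction, and their share lay near that of all genes. As for H2O2, more calls in either direction may come with the choice of members, so the shares are descriptions. The replicate numbers paired these samples, and with the replicate as a block 25 members were higher (19.1%, against 17.3% of all genes tested in that fit) and 65 lower (49.6%, against 19.5%). The count of higher members was 7 without control replicate 2 or MitoCoat-mRNA replicate 2 (3.2% and 3.18% of all genes) and 8 without MitoCoat-mRNA replicate 1 (4.46%). The gene at chr4:342302-350515 stood at -1.86 (SE 0.105, edgeR adjusted p = 6.25e-05) and that at chr5:171472273-171620947 at -1.88 (SE 0.214, adjusted p = 0.00115). Among the higher members, chr4:96562725-96564611 stood at 1.09 (SE 0.166), chr3:124129558-124145566 at 1.05 (SE 0.145) and chr5:159845774-159874206 at 0.85 (SE 0.0923).

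MitoCoat against unmodified mitochondria asked whether the lipid coat altered these genes. The rule kept a gene only if all 6 of these libraries were low, so a gene that stayed high in either group could not be a member, and likeness of the 2 groups is partly built into the choice. By edgeR 0 of 131 members were called in either direction (0% of 15731 genes tested), with a lowest adjusted p of 0.889. DESeq2 called 0 members, and 2 higher and 1 lower of 22506 genes (0.00889% and 0.00444%). At an unadjusted p under 0.05 there were 2 higher (1.53% of members, against 2.78% of all genes) and 4 lower (3.05%, against 2.17%). The log2 fold changes ran from -0.58 to 0.57 with a median of -0.02. The gene with the lowest unadjusted p, chr8:36625733-36710949, gave 124.5, 122.6 and 135.8 CPM with unmodified mitochondria and, with MitoCoat, 111.8, 102.1 and 110.4 CPM, values that did not overlap but differed by -0.25 on the log2 scale (SE 0.081, edgeR unadjusted p = 0.0126, adjusted p = 0.889). MitoCoat replicate 3 was the highest of the 6 mitochondria-treated libraries in 49 members (37.4%, against 24.6% of the 13180 genes), as in ENSRNOG00000015036 and at chr3:171294856-171342646.

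MitoCoat-mRNA against H2O2 asked whether the enclosed RNA, without the organelle, moved these genes. All 6 of these libraries entered the rule, and a gene that MitoCoat-mRNA lowered into the mitochondria range could not be a member, so the count of calls is limited by the choice of members. By edgeR 0 of 131 members were called (0% of 15506 genes tested), and DESeq2 called 0 members (0% of 22255 genes). At an unadjusted p under 0.05 there were 12 lower (9.16% of members, against 1.8% of all genes) and 2 higher (1.53%, against 1.19%). The median log2 fold change was -0.07, and 93 of 131 members lay below 0, against 50.8% of all genes tested. The rule also favours genes with little spread between libraries, and the members were more abundant than the median gene. More small p-values may therefore come with the choice of members. The shares at an unadjusted p and the count below 0 are descriptions. The lowest unadjusted p was at chr6:127075954-127127413, where every MitoCoat-mRNA value lay below every H2O2 value, by -0.37 on the log2 scale (SE 0.0789, edgeR unadjusted p = 0.00109, adjusted p = 1). The gene at chr7:2635743-2642848 gave 2.80, 2.55 and 2.37 CPM with H2O2 and 1.53, 1.57 and 1.29 CPM with MitoCoat-mRNA, a log2 fold change of -0.81 (SE 0.246, edgeR unadjusted p = 0.009, adjusted p = 1), beside 0.518, 0.842 and 0.471 CPM with unmodified mitochondria and, with MitoCoat, 0.654, 0.567 and 0.836 CPM. The lowest of the 6 upper libraries was MitoCoat-mRNA replicate 1 in 45 members (34.4%, against 14.9% of the 13180 genes) and MitoCoat-mRNA replicate 3 in 34 (26.0%, against 15.1%).

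The structure of the genes was not used by the rule. Members had a median exonic length of 2904 bases, against 2406 over the 13180 genes, and a median span of 21537 bases, against 21234.5. The median number of exons was 6 for members and 9 for the 13180 genes, and 34 members had 3 exons or fewer (26.0%, against 16.2%). A single exon was annotated in 8 members (6.11%, against 4.76%), among them chr4:96562725-96564611 and chr4:83967696-83972540. Members were thus longer in exon sequence but divided into fewer exons. At the other end, 22 members spanned more than 100 kb (16.8%, against 12.4%). These are descriptions of the annotation and were not tested.

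**Figure D5:**
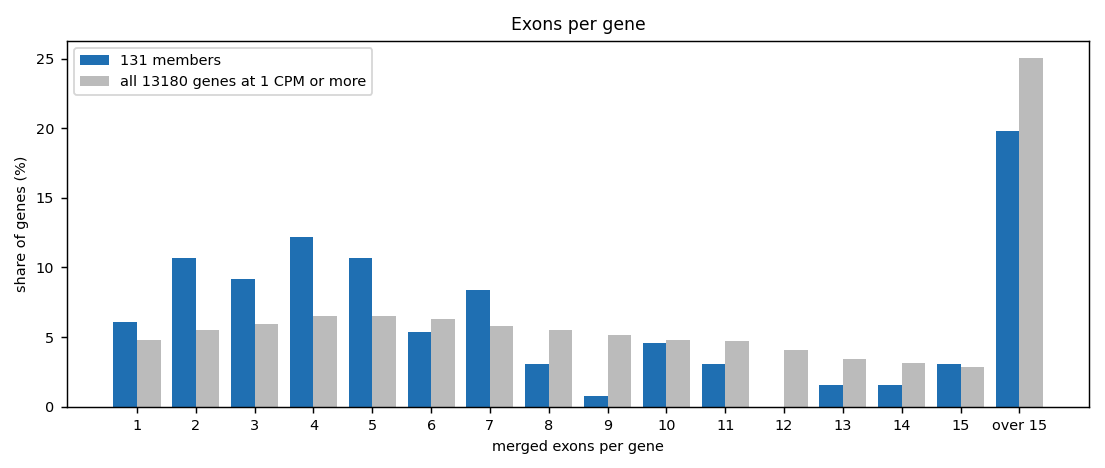
Bars give the share of genes, in percent on the vertical axis, by the number of merged exons on the horizontal axis, blue for the 131 members and grey for the 13180 genes at 1 CPM or more. The blue bars exceed the grey ones from 1 to 5 exons and are lower above 15 exons.

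Members lay on 21 chromosomes. Chromosome 4 held 16 (12.2%, against 5.49% of the 13180 genes), chromosome 15 held 9 (6.87%, against 2.82%) and chromosome 10 held 4 (3.05%, against 8.41%). Another member lay within 100 kb of 12 members (9.16%), in 6 pairs with no annotated gene between, whereas a member lay within 100 kb of 2.08% of the 13049 other genes. In 3 of the 6 pairs both genes were on the same strand.

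At chr9:15546823-15582556 and chr9:15582564-15604100 the genes of a pair ran in opposite directions with 7 bases between them, at means of 20.6 and 3.94 CPM in the H2O2 and MitoCoat-mRNA libraries, 10.3 and 2.25 CPM in the mitochondria-treated libraries, and 23.1 and 5.25 CPM in control. The pair at chr15:51834703-51839341 and chr15:51843564-51855325 shared a strand, 4222 bases apart, with control above all H2O2 and MitoCoat-mRNA values in both. Their control means were 15.1 and 94.7 CPM, and their means in the H2O2 and MitoCoat-mRNA libraries 8.47 and 56.5 CPM. Neighbours did not always share the position of control. The gene at chr4:342302-350515 fell after H2O2, whereas its neighbour at chr4:438668-444501, 88152 bases away, gave 8.60, 8.57 and 9.49 CPM in control and 11.8, 12.1 and 14.8 CPM with H2O2 (log2 fold change 0.55, SE 0.143, edgeR adjusted p = 0.0539). The other pairs were chr1:78800754-78812483 with chr1:78818404-78822224, chr4:71703873-71713063 with chr4:71740532-71749386, and chr4:122314458-122337389 with chr4:122365093-122377659.

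Exons of 5 members overlapped exons of a gene on the opposite strand and those of 2 overlapped a gene on the same strand. The study states strand-specific counting only where applicable, and does not say how reads in overlapping exons were counted. The values of these members are therefore uncertain. They include chr14:84968130-84978255 and chr4:71740532-71749386.

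The members just inside the threshold were chr8:111209908-111226226, chr4:438668-444501 and chr3:12262822-12292663, with log2 ratios of -0.603, -0.602 and -0.6002. The genes just outside, which met the other criteria, were chr13:88636875-88943592, chr6:110901940-110904288 and chr13:98615287-98708149, at -0.596, -0.594 and -0.587. Their means were 6.19, 158.1 and 75.0 CPM in the H2O2 and MitoCoat-mRNA libraries and 3.92, 104.5 and 49.7 CPM in the mitochondria-treated libraries.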

How the data were processed

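Reads were trimmed with Trimmomatic, aligned to Rnor6.0 with the Ensembl annotation by STAR, and uniquely mapped reads on exons were counted with featureCounts (Subread 1.5.2). The deposited values are the authors' raw counts for 32552 genes in 15 samples, 1 file per sample and without normalization. A further table, identical to unmodified mitochondria replicate 2, was not used. Groups were taken from the sample titles.

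CPM was computed from library totals. Tests used edgeR 4.0.16 (filterByExpr, TMM, glmQLFit and glmQLFTest) on the 6 samples of each comparison, with DESeq2 1.42.0 as an alternative, and Benjamini-Hochberg adjustment over all genes tested. The edgeR script was tested on simulated data. The members and lists were chosen with earlier results of these data known. Members described are the 12 lowest ratios, the 12 most abundant, up to 10 called in each direction after H2O2, and 3 genes on either side of the threshold. Some of the most abundant are given only as counts by the position of control. The 6 neighbouring pairs and single genes were added after their values were seen. At most 2 identifiers are printed, as the files pair none with symbols, and pathway lists, markers and promoter motifs were not analysed here.

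Replicate samples were not copies of each other. Deviations from group means correlated over 0.1 in every same-numbered pair for MitoCoat-mRNA against control (0.347 to 0.679), unmodified mitochondria against control (0.193 to 0.364), MitoCoat against unmodified mitochondria (0.314 to 0.428) and MitoCoat-mRNA against H2O2 (0.198 to 0.626), but not for H2O2 or MitoCoat against control. The pairing comes from this check and not from the labels.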

Additional observations from a re-analysis of the deposited data

How the results depend on the processing

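With the replicate number as a block, for the comparisons that the pairing check covers, 25 members were higher with MitoCoat-mRNA than control in place of 13, and 28 with a length trend offset added (18.1% of all genes). The block moved no other count by over 1.5 times. In MitoCoat against unmodified mitochondria it called 0 members, beside 5 of 15731 genes higher (0.0318%) and 0 lower. In MitoCoat-mRNA against H2O2 it called 0 members (0% of 15506 genes). In H2O2 against control, where the check did not pair the samples, the block gave 13 members higher and 32 lower (3.23% and 6.22% of all genes), and 18 higher with the length trend offset (5.27%). DESeq2 called 17 higher there. For H2O2 against control, leaving out 1 library at a time gave 2 to 10 members higher (0.902% to 3.12% of all genes) and 11 to 35 lower (1.44% to 4.23%). For MitoCoat-mRNA against control it gave 7 to 15 higher (3.18% to 8.14%) and 36 to 52 lower (4.61% to 9.28%). Lower members numbered 113 to 119 with unmodified mitochondria (7.6% to 12.6%) and 101 to 112 with MitoCoat (7.83% to 14%).

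The rule gave 121 to 152 genes when 1 library was left out, 153 with TMM and 156 with RLE scaling, and 28 with a ratio of -1 or lower. Control lay above all H2O2 and MitoCoat-mRNA values in 44 members with either scaling and in 48 to 61 without 1 control library, and below all mitochondria and MitoCoat values in 0 to 1. For single members, 1623 recomputed values kept their direction and side of the threshold, 81 kept the direction only, and 0 reversed. These totals pool all comparisons, also those of unmodified mitochondria and MitoCoat with control, where the choice of members largely sets the outcome. A value that stayed uncalled in a comparison without calls counted as kept. The totals therefore do not measure how stable the calls after H2O2 were. Alternatives on pathway lists were not run, since no symbols could be paired. The standard error of the log2 difference between MitoCoat and unmodified mitochondria had a median of 0.16 over the members.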
